A study of Homo sapiens with 6 samples.

Results

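Receptor tyrosine kinases outside the ERBB and insulin receptor families were followed in C4-2 cells in which an active form of YAP1 had been switched on. The set was a list of 49 gene symbols chosen by family, and each was read as the first row of the deposited table with that symbol. Of these 49, 45 were found among the 26819 genes of the table, and KIT, MUSK, NTRK3 and TEK were not analysed here. A level of at least 1 TPM (a read number corrected for the length of the gene and for the depth of the library) in at least 3 of the 6 libraries was reached by 25 members, which were tested. The other 20 members stayed under that filter.

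C4-2 is a castration-resistant human prostate cancer cell line derived from LNCaP. All libraries came from C4-2 cells carrying Tet-O-YAP5SA, a doxycycline-driven YAP1 that the LATS kinases can no longer phosphorylate at its serines, which were changed to alanine, grown in RPMI-1640 with 10% serum. The Dox group (n = 3) received doxycycline for 24 hours, at 0.2 mg/ml as the labels give it, a unit that could not be checked here, and the Ctrl group (n = 3) received none. Treated cells without the transgene were not analysed here, so an effect of doxycycline itself cannot be told apart from that of YAP5SA. Nothing says whether the line is 1 clone or whether the libraries came from separate cultures, and p-values therefore cover only library-to-library spread, which may be technical.

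A receptor tyrosine kinase spans the plasma membrane, binds a ligand outside the cell and, once paired with a second receptor, phosphorylates tyrosines on its own tail to which adaptors such as GRB2 and SHC1 bind. The Eph receptors form the largest family and bind ephrins, which are themselves held on neighbouring cells. In prostate cancer cells, MET, FGF receptors and Eph receptors are known for their part in growth, migration and cell contact. YAP1 acts with the DNA-binding TEAD factors, and AXL has been reported as a YAP1 target in other cell types.

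The tested genes held 24914226 to 29207519 reads per library, recovered from the TPM values. YAP1, measured over the whole gene without separating the transgene, was at 263, 277 and 268 TPM in the Dox libraries, against 52.7, 57.9 and 59.9 TPM in the Ctrl libraries. All 10 luminal prostate markers checked reached the filter. Of these 4 rose, 5 fell and 1 did not pass. The rises included KRT18 (716 TPM in Dox, 523 TPM in Ctrl) and the falls KLK3 (1795 TPM in Dox, 3297 TPM in Ctrl). The 6 fibroblast and stromal, 3 immune and 3 neural markers that could be read summed to 8.41 to 9.13, 0.185 to 0.274 and 0.286 to 0.482 TPM in Dox, against 7.03 to 7.76, 0.391 to 0.454 and 0.319 to 0.649 TPM in Ctrl. Most of the stromal sum was COL1A1 (8.04 TPM in Dox and 6.58 TPM in Ctrl). In such bulk samples, fewer cells with a transcript and less transcript per cell cannot be told apart. With a limma adjusted p under 0.05 over all 14833 tested genes, 53.7% of genes were called, 35.9% higher and 17.8% lower. The median log2 fold change over those 14833 genes, called or not, was 0.10. Below, ± after a TPM mean is the SD over 3 libraries and ± after a log2 fold change is its SE. Quantile normalization moved that median by -0.13 and median-ratio rescaling by -0.10, so small changes are also given relative to it.

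Among the 25 tested receptors 9 rose and 4 fell, while 12 missed the threshold, that is 52.0% called against the background of 53.7% of all genes. By direction 36% of them rose and 16% fell, against 35.9% and 17.8% of all genes. The share of receptors that changed was thus close to that of any expressed gene, and their median log2 fold change of 0.12 was close to the 0.10 of all genes. After median-ratio rescaling 8 rose and 7 fell, where 26.7% of all genes rose and 26.6% fell. After quantile normalization 7 rose and 7 fell, where 23.8% of all genes rose and 29.3% fell. A called change with a ratio of mean TPM of at least 1.5 was found for 7 of the 25 receptors. It was upwards for EPHA2, ROR1, MET, EPHA7 and FGFR2 and downwards for RET and EPHB6. The background of all genes with such a change was 17.8%, 13.2% upwards and 4.61% downwards. EPHA7 and FGFR2 met the filter through the Dox libraries and RET through the Ctrl libraries, as their other group alone would not have met it. How many of all genes met it in this way was not counted. The Dox and Ctrl libraries did not overlap for 15 of the 25, 10 higher and 5 lower, against 61.9% of all genes, 40.8% higher and 21.1% lower.

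**Figure D1:**
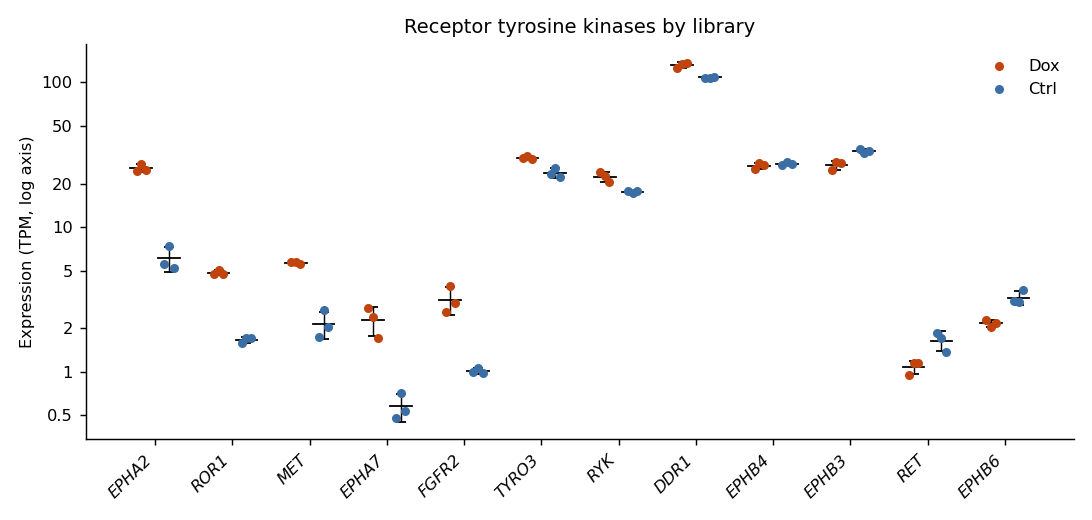
Level of 12 receptors in each library (points, TPM on a log axis), Dox left of Ctrl, with the mean (bar) and SD (n = 3). The receptors are the 7 that were called with a ratio of at least 1.5 and the 5 with the highest level, ordered by fold change. EPHA2 in Dox (25.6 ± 1.56 TPM) reaches the level of EPHB3 and EPHB4, while in Ctrl it is at 6.08 ± 1.2 TPM.

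The promoter windows of EPHA2, ROR1 and MET are shown because these were the called receptors with the largest rises on the log2(TPM + 1) scale. By the ratio of mean TPM, EPHA7 and FGFR2 stood above ROR1 and MET. Each window runs from 250 bases before to 50 bases after the annotated start (RefSeq, GRCh38.p14, given 5′ to 3′ along the gene). Capitals mark the core TEAD motif GGAATG, or CATTCC where it lies on the other strand. The windows are those of EPHA2 (chr1:16156020-16156319, minus strand), ROR1 (chr1:63773767-63774066, plus strand) and MET (chr7:116671946-116672245, plus strand).
EPHA2: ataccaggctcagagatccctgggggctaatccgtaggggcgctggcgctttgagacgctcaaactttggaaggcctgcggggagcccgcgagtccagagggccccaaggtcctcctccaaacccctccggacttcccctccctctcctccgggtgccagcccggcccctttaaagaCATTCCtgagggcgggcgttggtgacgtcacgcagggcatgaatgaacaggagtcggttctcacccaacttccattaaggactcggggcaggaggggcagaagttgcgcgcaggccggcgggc
ROR1: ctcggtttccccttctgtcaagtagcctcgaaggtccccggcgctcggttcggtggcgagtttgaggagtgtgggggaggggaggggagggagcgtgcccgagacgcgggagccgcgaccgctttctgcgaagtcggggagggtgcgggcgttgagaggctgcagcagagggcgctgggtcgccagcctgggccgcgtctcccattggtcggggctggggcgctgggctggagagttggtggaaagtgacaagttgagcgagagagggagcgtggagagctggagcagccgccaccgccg
MET: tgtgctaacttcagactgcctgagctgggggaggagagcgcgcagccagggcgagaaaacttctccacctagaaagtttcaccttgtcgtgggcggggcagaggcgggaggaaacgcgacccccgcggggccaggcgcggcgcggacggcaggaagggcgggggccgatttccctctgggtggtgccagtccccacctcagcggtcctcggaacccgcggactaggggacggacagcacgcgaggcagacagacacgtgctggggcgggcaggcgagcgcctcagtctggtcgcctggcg
The EPHA2 window held 1 match, CATTCC, whose first base lies 73 bases before the start, and the ROR1 and MET windows held none. Over all genes with a window, 14% (3836 of 27305) had at least 1 match on either strand. Among receptors with a window it was 4 of 45, namely EPHA2, FGFR4, NTRK2 and AATK, and among the 9 that rose it was EPHA2 alone. These 45 are not the 45 whose levels were read. They include KIT, MUSK, NTRK3 and TEK and lack FGFR1, FLT4, EPHA10 and STYK1. Of the tested receptors 22 had a window. A match describes these letters only, and sites outside the window were not searched.

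EPHA2 (ENSG00000142627.9), an Eph receptor of epithelial cells that binds A-type ephrins, had the largest rise among the tested receptors, both on the log2(TPM + 1) scale and as a ratio of mean TPM. It was at 24.5, 27.4 and 25 TPM in the Dox libraries, against 5.58, 7.45 and 5.2 TPM in the Ctrl libraries. Every Dox library lay more than 3-fold above every Ctrl library. The ratio of mean TPM was 4.22 and the log2 fold change on the log2(TPM + 1) scale 1.92 ± 0.12 (SE, limma adjusted p = 7.2e-06). In the order of levels it stood 5th in Dox, overlapping EPHB4 just above it, and 12th in Ctrl, overlapping EPHA6 just above it.

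EPHA7 (ENSG00000135333.9), an Eph receptor best known from the developing nervous system, was at 2.74, 2.38 and 1.72 TPM in Dox, against 0.479, 0.716 and 0.536 TPM in Ctrl. All Ctrl libraries were under the filter of 1 TPM and all Dox libraries above it. Those values rest on 153, 147 and 113 reads in Dox, against 32, 45 and 34 reads in Ctrl. EPHA7 met the filter through the Dox libraries alone. The ratio of mean TPM was 3.95 and the log2 fold change 1.05 ± 0.15 (SE, limma adjusted p = 7.4e-04). EPHA5, its neuronal relative, stayed under the filter and is described with the low members.

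Among the Eph receptors 3 fell. EPHB6 (ENSG00000106123.7), whose kinase domain lacks catalytic activity, was at 2.29, 2.03 and 2.17 TPM in Dox, against 3.08, 3.04 and 3.65 TPM in Ctrl, with a log2 fold change of -0.43 ± 0.10 (SE, limma adjusted p = 0.0078). No Dox library of EPHB6 reached the lowest Ctrl library, and the Ctrl mean was 1.5 times the Dox mean. EPHB3 (ENSG00000182580.2), a receptor for B-type ephrins known for sorting cells along the intestinal crypt, was at 24.7, 28.3 and 27.5 TPM in Dox, against 34.6, 32.5 and 33.4 TPM in Ctrl. That difference of -0.31 ± 0.06 on the log2 scale (SE, limma adjusted p = 0.0031) came with a 3rd place of EPHB3 among the receptors in Dox and a 2nd place in Ctrl. EPHA6, another neuronal Eph receptor, was at 5.09, 5.29 and 4.76 TPM in Dox and 6.39, 6.63 and 6.68 TPM in Ctrl (log2 fold change -0.32 ± 0.07, limma adjusted p = 0.0055).

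The other Eph receptors that were tested did not pass. EPHB4, the receptor of ephrin-B2 in blood vessels, was among the 5 highest receptors, at 25.3, 27.7 and 26.7 TPM in Dox and 26.8, 28.3 and 27.4 TPM in Ctrl (log2 fold change -0.05 ± 0.05, limma adjusted p = 0.44). The libraries of the groups overlapped for EPHB4. EPHA3 did not overlap, with 9.03 to 9.91 TPM in Dox against 10.3 to 11.4 TPM in Ctrl, but its log2 fold change of -0.17 ± 0.06 missed the threshold (limma adjusted p = 0.058). EPHA1 had a log2 fold change of -0.09 ± 0.07. Relative to the median of all genes, EPHB4, EPHA3 and EPHA1 stood at -0.14, -0.27 and -0.19, and all 3 were called lower after either rescaling (limma adjusted p of 0.0036 to 0.020). EPHA10, an Eph receptor without kinase activity, was at 1.07 ± 0.094 TPM in Dox and 0.943 ± 0.108 TPM in Ctrl (SD, n = 3), and EPHB2 at 1.57 ± 0.426 and 1.38 ± 0.412 TPM.

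Summed over the 14 Eph receptors that could be read, the level was 109, 119 and 111 TPM in Dox and 102, 105 and 101 TPM in Ctrl. The A class summed to 54.9, 58.4 and 52.5 TPM in Dox, against 35.9, 39.2 and 35.5 TPM in Ctrl, and the B class to 53.6, 60.3 and 58.1 TPM in Dox, against 65.7, 65.7 and 65.5 TPM in Ctrl. The B class thus made up the larger share in every Ctrl library, and in Dox the classes were close to each other. EPHA2 alone accounted for 6.92% of the summed level of all 45 receptors in Dox and 1.97% in Ctrl.

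MET (ENSG00000105976.10), the receptor of hepatocyte growth factor, was at 5.71, 5.76 and 5.56 TPM in Dox, against 1.74, 2.65 and 2.04 TPM in Ctrl. The Dox libraries lay within a narrow band more than 2-fold above the highest Ctrl library. The ratio of mean TPM was 2.65, with a log2 fold change of 1.10 ± 0.12 (SE, limma adjusted p = 1.5e-04). MST1R, the related receptor of macrophage-stimulating protein, also known as RON, narrowly missed the filter, with 2 Dox libraries at or above 1 TPM. MST1R was at 1.43, 0.967 and 1.13 TPM in Dox, against 0.0851, 0.0453 and 0.0673 TPM in Ctrl, or 56, 42 and 52 reads against 4, 2 and 3 reads. In every Dox library MST1R had more than 10 times the reads of any Ctrl library. Of its exons 6.23% overlap an antisense transcript in GENCODE 29.

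ROR1 (ENSG00000185483.7), a receptor for WNT5A that is abundant in the embryo and in some leukaemias, was at 4.75, 5.09 and 4.71 TPM in Dox, against 1.58, 1.7 and 1.72 TPM in Ctrl. The groups were separated by far more than the spread within them, with a ratio of mean TPM of 2.91 and a log2 fold change of 1.13 ± 0.08 (SE, limma adjusted p = 2.4e-05). RYK (ENSG00000163785.8), a Wnt receptor with an inactive kinase domain and one of the 5 highest members, was at 23.9, 22.6 and 20.4 TPM in Dox, against 17.7, 17.3 and 17.6 TPM in Ctrl. That rise of 0.33 ± 0.06 on the log2 scale (SE, limma adjusted p = 0.0034) was 0.23 relative to the median of all genes and was lost after quantile normalization (limma adjusted p = 0.053). PTK7, a further Wnt-linked receptor with an inactive kinase, did not pass the test, at 7.8 ± 0.535 TPM in Dox and 7.09 ± 0.33 TPM in Ctrl (SD, n = 3). ROR2 stayed under the filter at 0.156 to 0.367 TPM in Dox and 0.122 to 0.263 TPM in Ctrl.

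Of the 4 FGF receptors, FGFR2 alone passed the test. FGFR2 (ENSG00000066468.16), the receptor whose splice forms mark epithelial and mesenchymal cells, was at 2.59, 3.91 and 2.97 TPM in Dox, against 0.991, 1.07 and 0.983 TPM in Ctrl. The lowest Dox library was above 2 times the highest Ctrl library, and the table does not separate the splice forms. FGFR2 met the filter of 1 TPM through the Dox libraries, as the Ctrl libraries alone would not have met it. The ratio of mean TPM was 3.11, with a log2 fold change of 1.03 ± 0.13 (SE, limma adjusted p = 4.5e-04). FGFR4, which pairs with KLB in bile acid control of the liver, was at 4.54 ± 0.38 TPM in Dox and 3.72 ± 0.242 TPM in Ctrl (SD, n = 3), just short of the threshold (log2 fold change 0.23 ± 0.09, limma adjusted p = 0.058). FGFR3 and FGFR1 had log2 fold changes of 0.06 ± 0.09 and 0.07 ± 0.10 and turned to below 0 after either rescaling. Whether FGFR2 differed from the other FGF receptors in its change was not tested.

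DDR1 (ENSG00000204580.7), a collagen-binding receptor of epithelial cells, was the most abundant receptor in every library, at 125, 135 and 137 TPM in Dox, against 107, 108 and 109.7 TPM in Ctrl. It held 35.7% of the summed receptor level in Dox and 35% in Ctrl. All Dox libraries were above all Ctrl libraries, with a log2 fold change of 0.29 ± 0.04 (SE, limma adjusted p = 7.0e-04), or 0.19 relative to the median of all genes and 0.18 after median-ratio rescaling. Its relative DDR2, a collagen receptor of mesenchymal cells, was at 0.124, 0.203 and 0.201 TPM in Dox and 0.312, 0.21 and 0.329 TPM in Ctrl. No library of DDR2 reached 0.5 TPM.

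TYRO3 (ENSG00000092445.7), a receptor of the AXL family that binds PROS1 and GAS6 on dying cells, was at 30.1, 31 and 29.7 TPM in Dox, against 23.3, 25.7 and 22.1 TPM in Ctrl (log2 fold change 0.34 ± 0.06, limma adjusted p = 0.0021). Relative to the median of all genes that was 0.24, and after quantile normalization the log2 fold change was 0.20. It stood 2nd among the receptors in Dox and 4th in Ctrl. MERTK, the family member used by phagocytes, did not pass the test at 2.09 ± 0.0749 TPM in Dox and 2.26 ± 0.187 TPM in Ctrl (SD, n = 3). AXL itself was low in all libraries, at 0.259, 0.258 and 0.154 TPM in Dox and 0.238, 0.207 and 0.571 TPM in Ctrl. These AXL values rest on 10, 11 and 7 reads in Dox and 11, 9 and 25 reads in Ctrl, and the highest library was a Ctrl one. Scaled by the reads per kb that 1 TPM stands for in each group, the Dox to Ctrl ratio of AXL reads was 0.656 (95% exact interval 0.394 to 1.07). That interval covers counting error only.

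RET (ENSG00000165731.13), the receptor of the GDNF family and of GDF15, was at 0.943, 1.14 and 1.14 TPM in Dox, against 1.86, 1.71 and 1.36 TPM in Ctrl. The groups did not overlap, and the call rested on a small margin (log2 fold change -0.35 ± 0.12, limma adjusted p = 0.046). RET met the filter through the Ctrl libraries, as the Dox libraries alone would not have met it. RET no longer passed without Dox replicate 1 (adjusted p = 0.12), 2 (0.078) or 3 (0.074), or without Ctrl replicate 1 (0.14) or 2 (0.11), with a pseudocount of 0.1 (0.053) or with no filter (0.069). LMTK2, a membrane kinase of endosomal traffic, was at 15 ± 1.08 TPM in Dox and 12.5 ± 0.762 TPM in Ctrl (SD, n = 3; log2 fold change 0.24 ± 0.07, limma adjusted p = 0.023). Its call was lost after median-ratio rescaling (adjusted p = 0.1) and quantile normalization (0.34), and without Dox replicate 2 (0.081) or 3 (0.066) or Ctrl replicate 1 (0.073) or 3 (0.054). The pseudokinase gene STYK1 (14.7 ± 0.662 TPM in Dox, 13.2 ± 1.27 TPM in Ctrl) and LMTK3 (3.63 ± 0.933 and 2.97 ± 0.323 TPM) did not pass. LMTK3 was called higher only without Dox replicate 1 (limma adjusted p = 0.043), and FGFR4 without Dox replicate 3 (0.049) or with no variance trend (0.032).

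**Figure D2:**
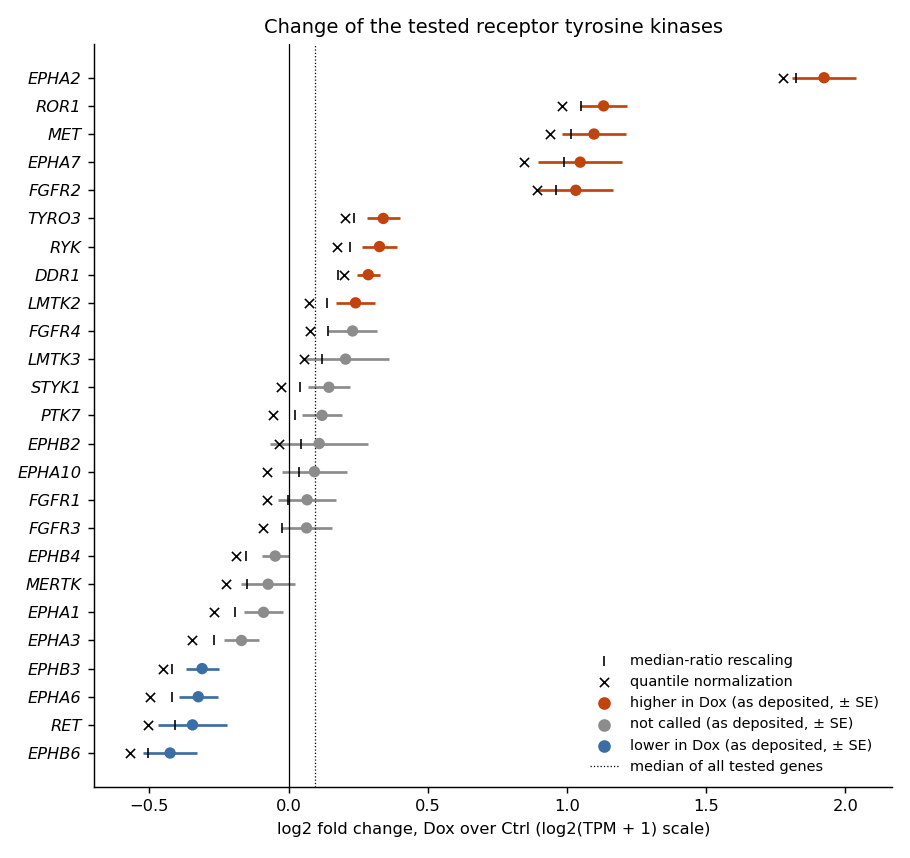
Log2 fold change, Dox over Ctrl on the log2(TPM + 1) scale, of the 25 tested receptors (points with SE), with the value after median-ratio rescaling (vertical ticks) and quantile normalization (crosses). The dotted line is the median of all tested genes, 0.10. EPHA2, ROR1, MET, EPHA7 and FGFR2 stand at 1.03 to 1.92, and all other receptors lie between -0.43 and 0.34.

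The summed level of all 45 receptors was 357, 383 and 371 TPM in Dox, against 303, 316 and 308 TPM in Ctrl. Every Dox library was above every Ctrl library. Of the difference in means between 370.3 TPM in Dox and 309 TPM in Ctrl, DDR1 contributed 24.1 TPM and EPHA2 19.6 TPM. As TPM is a share of a fixed total, these sums are levels relative to all other transcripts.

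**Figure D3:**
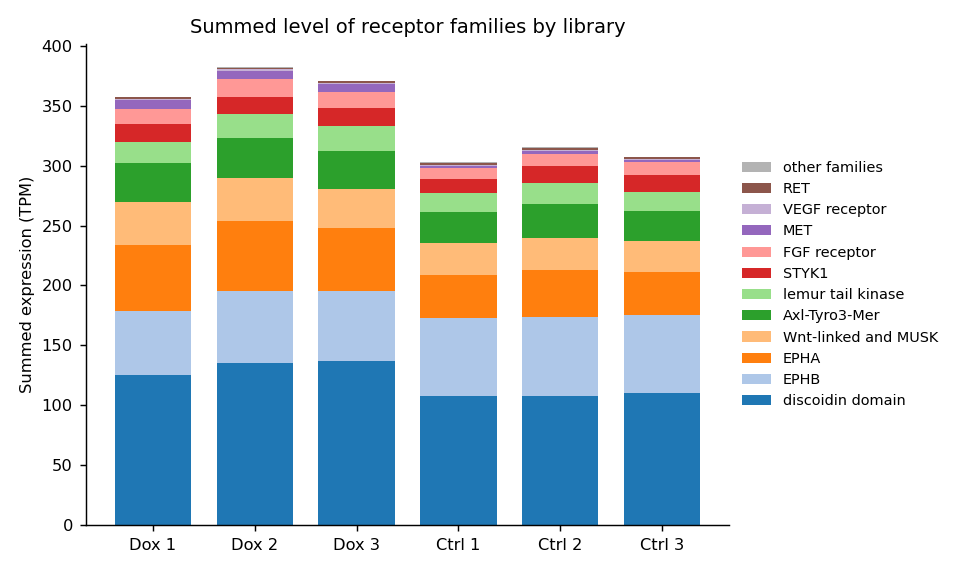
Summed level (TPM) of the receptor families in each library, Dox libraries on the left and Ctrl libraries on the right, stacked by family. The discoidin domain receptors, nearly all DDR1, and the Eph classes A and B make up most of each bar. The EPHA band is 54.9, 58.4 and 52.5 TPM in Dox and 35.9, 39.2 and 35.5 TPM in Ctrl.

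Of the 20 receptors under the filter, 6 reached 0.5 TPM in at least 1 library, namely MST1R, EPHA5, FLT4, FLT1, AATK and AXL, and the other 14 stayed at or under 0.367 TPM throughout. Fitted without the filter, 4 of the 20 were called, all higher (limma adjusted p of 5.5e-04 for MST1R, 0.0023 for FLT1, 0.0045 for EPHA5 and 0.032 for EPHB1). In that fit 5.33% of all genes under the filter and 27.9% of all genes were called. The groups did not overlap for 9 of the 20, 6 higher and 3 lower, against 13.9% of all genes under the filter. Those background genes were not matched to the 20 receptors by level, so the shares cannot be compared directly. Several of these rest on a few reads per library, and the sizes of FLT1 and EPHB1 are given below with counting intervals.

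FLT1, the VEGF receptor 1 that also binds PGF, had 36, 32 and 25 reads in Dox, against 2, 0 and 0 reads in Ctrl, or 0.596, 0.479 and 0.352 TPM against 0.0276, 0 and 0 TPM. The ratio of reads, scaled as for AXL, was 49 (95% exact interval 13.2 to 411). EPHB1, an Eph receptor of axon guidance, had 11, 15 and 6 reads in Dox, against 0, 1 and 1 reads in Ctrl, and a ratio of 16.9 (95% exact interval 4.3 to 145). EPHA5 was at 0.734, 0.872 and 0.751 TPM in Dox, against 0.284, 0.266 and 0.359 TPM in Ctrl, a ratio of mean TPM of 2.6. Its exons overlap those of the antisense transcript EPHA5-AS1 over 5.44% of their length in GENCODE 29, and that transcript was at 0.473 TPM in Dox and 0.218 TPM in Ctrl. FLT4, the VEGF receptor 3 of lymphatic vessels, was at 0.755, 0.873 and 0.796 TPM in Dox and 0.567, 0.724 and 0.545 TPM in Ctrl and was not called without the filter (limma adjusted p = 0.2). AATK, a lemur tail kinase, was at 0.773, 0.698 and 0.913 TPM in Dox and 0.914, 0.877 and 0.869 TPM in Ctrl.

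FLT1 is a gene of endothelial cells, and 4 of 6 endothelial markers could be read. These 4 summed to 6.46 to 7.08 TPM in Dox, against 2.12 to 2.80 TPM in Ctrl. VWF was at 3.74 TPM in Dox and 1.25 TPM in Ctrl, ESAM at 2.59 TPM in Dox and 1.13 TPM in Ctrl, CDH5 at 0.469 TPM in Dox and 0.00658 TPM in Ctrl, and EMCN at 0.00849 TPM in Dox and 0.0146 TPM in Ctrl. No marker of this list was at 0 in all libraries, and their part in the rise of FLT1 was not tested. KDR, the VEGF receptor 2 that defines endothelial cells, had 0, 4 and 1 reads in Dox and none in any Ctrl library, where up to 3 reads per library remain possible. TIE1, another endothelial receptor, had 0, 2 and 0 reads in Dox and none in Ctrl.

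Most of the remaining low receptors had few reads in every library. PDGFRB, a receptor of fibroblasts and pericytes, had 3, 4 and 6 reads in Dox, against 9, 14 and 11 reads in Ctrl, and NTRK2, the receptor of brain-derived neurotrophic factor, 11, 7 and 5 against 17, 22 and 17 reads. Both were lower in every Dox library than in any Ctrl library, and neither was called without the filter (limma adjusted p = 0.074 and 0.16). DDR2 was the other low member without overlap downwards (adjusted p = 0.2). PDGFRA, the partner of PDGFRB, had at most 3 reads in any library, as did ALK and LTK. The macrophage receptor CSF1R had at most 5 reads, EPHA8 at most 6 and EPHA4 at most 8. FLT3, a receptor of blood progenitors, had 9, 10 and 9 reads in Dox and 12, 3 and 3 reads in Ctrl.

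**Figure D4:**
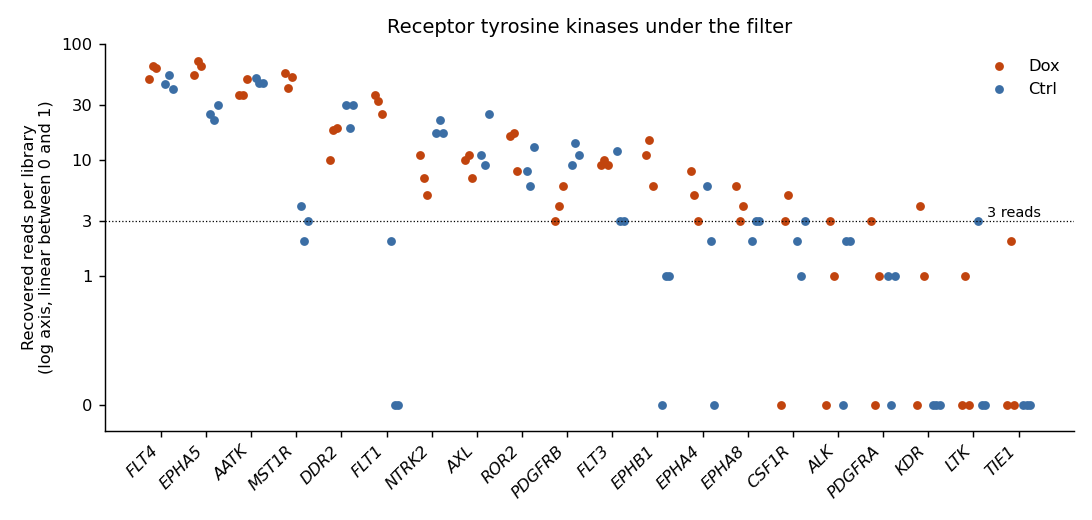
Recovered reads per library (log axis, linear between 0 and 1) of the 20 receptors under the filter, Dox left of Ctrl, ordered by total reads. The dotted line marks 3 reads, the number that a count of 0 still allows. MST1R (42 to 56 reads in Dox, 2 to 4 in Ctrl), FLT1 (25 to 36 and 0 to 2) and EPHB1 (6 to 15 and 0 to 1) show the widest gaps.

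The ligands of these receptors changed in both directions. Of 53 ligand genes, 48 could be read and 26 were tested, of which 12 rose, 8 fell and 6 did not pass. That is 46.2% higher and 30.8% lower, against 35.9% and 17.8% of all genes, with a median log2 fold change of 0.16 against 0.10 for all genes. After either rescaling 11 rose and 11 fell, against 26.7% and 26.6% of all genes with median ratios and 23.8% and 29.3% with quantiles. CSF1 (1.08 TPM in Dox, 0.372 TPM in Ctrl) and NTF4 (2.02 TPM in Dox, 0.858 TPM in Ctrl) were among the ligands that rose. Both met the filter only through the Dox libraries, as did PTN, so the share of ligands that rose includes genes admitted by their Dox level. PTN, a heparin-binding growth factor, met the filter through the Dox libraries alone, at 5.61, 7.47 and 5.18 TPM in Dox, against 0.13, 0.208 and 0.137 TPM in Ctrl (72, 106 and 78 reads against 2, 3 and 2 reads, log2 fold change 2.60 ± 0.14, limma adjusted p = 3.9e-06). EFNB2, the ephrin that binds EPHB4 and other B-class receptors, was at 33.7 ± 2.62 TPM in Dox, against 12.4 ± 0.339 TPM in Ctrl, with 26.2% of its exons overlapping an antisense transcript. WNT5A, the ligand of ROR1, was at 5.77 ± 0.343 TPM in Dox, against 2.49 ± 0.104 TPM in Ctrl. AGRN, the proteoglycan that acts through LRP4 and MUSK at the nerve-muscle junction, was at 27 ± 2.44 TPM in Dox, against 12.7 ± 0.296 TPM in Ctrl, and 3.74% of its exons overlap another transcript of the same strand. The limma adjusted p was at most 4.8e-05 for these genes.

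VEGFA, the main ligand of FLT1 and KDR, fell to 19.4 ± 2.13 TPM in Dox, against 42.1 ± 0.655 TPM in Ctrl (SD, n = 3; log2 fold change -1.09 ± 0.07, limma adjusted p = 1.4e-05). EFNA3 and EFNA4, ligands of the A-class Eph receptors, fell to 184 ± 7.81 and 56.8 ± 3.62 TPM in Dox, against 304 ± 7.09 and 76.8 ± 2.41 TPM in Ctrl. In GENCODE 29, 44.7% and 15% of their exons are shared with a gene that joins them, so their separate values are uncertain. NRTN, a ligand of RET through GFRA2, fell to 1.82 ± 0.33 TPM in Dox, against 3.54 ± 1.14 TPM in Ctrl, and did not pass when Dox replicate 1 (limma adjusted p = 0.077), Ctrl replicate 1 (0.084) or Ctrl replicate 2 (0.083) was left out. Picked after their values were seen, EFNA1, a ligand of EPHA2, was at 299 ± 8.08 TPM in Dox and 381 ± 5.14 TPM in Ctrl (log2 fold change -0.35 ± 0.03), and EFNA5, another ligand of this class, at 95.2 ± 2.11 and 63.8 ± 3.69 TPM (0.57 ± 0.05). A-class ephrins therefore moved both ways while EPHA2 rose. The ligand of KIT, KITLG, also picked in this way, was at 4.14 ± 0.327 TPM in Dox and 1.71 ± 0.10 TPM in Ctrl. Adjusted p-values of these 3 were 5.5e-05, 4.4e-05 and 1.2e-04 (limma).

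Among 17 co-receptors and genes that process ligands, 13 could be read and 5 were tested, of which 3 rose, 1 fell and 1 did not pass. That is 60% higher and 20% lower, against 35.9% and 17.8% of all genes. NRP1, the neuropilin that presents VEGF and semaphorins, rose to 57.4, 56.8 and 51.8 TPM in Dox, against 5.39, 5.85 and 5.44 TPM in Ctrl, a ratio of mean TPM of 9.94 (log2 fold change 3.10 ± 0.06, limma adjusted p = 3.2e-08). The summed level of the endothelial markers given beside FLT1 was also higher in Dox, and their part in the rise of NRP1 was not tested. Of the NRP1 exons 4.87% overlap an antisense transcript, and of the SPINT2 exons 4.65% overlap another gene on the same strand. SPINT1 and SPINT2, inhibitors of the proteases that activate hepatocyte growth factor and macrophage-stimulating protein, rose to 385 ± 14.3 and 308 ± 1.83 TPM in Dox, against 234 ± 9.8 and 229 ± 4.76 TPM in Ctrl. FGFRL1, which binds FGFs without a kinase domain, fell to 73.2 ± 5.14 TPM in Dox, against 85.7 ± 3.46 TPM in Ctrl (log2 fold change -0.23 ± 0.06, limma adjusted p = 0.012). ST14 did not pass, at 212 ± 16.3 TPM in Dox and 215 ± 8.59 TPM in Ctrl (log2 fold change -0.02 ± 0.06, limma adjusted p = 0.79). The median log2 fold change of the 5 was 0.42, against 0.10 for all genes.

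Among adaptors and effectors of the receptors, 13 rose and 2 fell, or 41.9% and 6.45% of those tested, against 35.9% and 17.8% of all genes. The list held 38 genes, of which 31 were tested and 16 of those did not pass, with a median log2 fold change of 0.19 against 0.10 for all genes. The smallest rises were those of SRC, SOS1 and CRK, with log2 fold changes of 0.20, 0.23 and 0.24. Relative to the median of all genes these stood at only 0.11, 0.14 and 0.14. LYN, a kinase of the SRC family, rose to 75.3 ± 3.45 TPM in Dox, against 30.9 ± 2.94 TPM in Ctrl, and STAT3, a transcription factor activated below several receptors, to 102 ± 0.309 TPM in Dox, against 51.9 ± 1.73 TPM in Ctrl. DOK7, the cytoplasmic activator of MUSK, was at 3.08, 3.02 and 3.75 TPM in Dox, against 0.746, 1.06 and 0.874 TPM in Ctrl. DOK7 met the filter through the Dox libraries, as the Ctrl libraries alone would not have met it. GAB2, a docking protein, rose to 6.33 ± 0.407 TPM in Dox, against 4.2 ± 0.243 TPM in Ctrl (log2 fold change 0.49 ± 0.08, limma adjusted p = 0.0013). GRB10, an adaptor known for restraining insulin and IGF receptors, fell by 0.36 on the log2 scale (limma adjusted p = 5.3e-04). CRKL fell by 0.12 (limma adjusted p = 0.041), a call that 5 of the 6 fits leaving out 1 library did not keep, the exception being the fit without Dox replicate 3, with adjusted p of 0.060 without Ctrl replicate 1 to 0.13 without Ctrl replicate 3.

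Genes that dampen or remove receptors changed at a share close to that of all genes. Of 27 tested among 34, 11 rose, 3 fell and 13 did not pass (median log2 fold change 0.15). That is 40.7% higher and 11.1% lower, against 35.9% and 17.8% of all genes. Here median-ratio rescaling left 8 that rose and 4 that fell, where 26.7% of all genes rose and 26.6% fell. Quantile normalization left 7 and 5, where 23.8% of all genes rose and 29.3% fell. PTPRJ, a receptor phosphatase that acts on MET and other receptors, rose to 86.8 ± 3.68 TPM in Dox, against 33 ± 2.57 TPM in Ctrl (log2 fold change 1.37 ± 0.06, limma adjusted p = 1.6e-06). ADAM10, the protease that sheds ephrins and several receptors, rose to 119.5 ± 2.31 TPM in Dox, against 62.9 ± 3.66 TPM in Ctrl. SH3KBP1, which links CBL to endocytosis, rose to 13.9 ± 0.406 TPM in Dox, against 7.12 ± 0.644 TPM in Ctrl, and ERRFI1, an inhibitor of EGFR, to 87.3 ± 1.5 TPM in Dox, against 51.5 ± 2.69 TPM in Ctrl. LRIG1, which promotes the breakdown of EGFR and MET, fell to 12.7 ± 0.539 TPM in Dox, against 27.4 ± 1.53 TPM in Ctrl (log2 fold change -1.05 ± 0.06, limma adjusted p = 5.1e-06). Of the LRIG1 exons 12.9% overlap SLC25A26 on the other strand, and whether reads were counted by strand is not stated in the labels. SOCS2, a suppressor of cytokine signalling, and the phosphatase PTPN2 fell to 1.93 ± 0.535 and 8.45 ± 0.108 TPM in Dox, against 3.35 ± 0.242 and 11 ± 0.432 TPM in Ctrl.

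**Figure D5:**
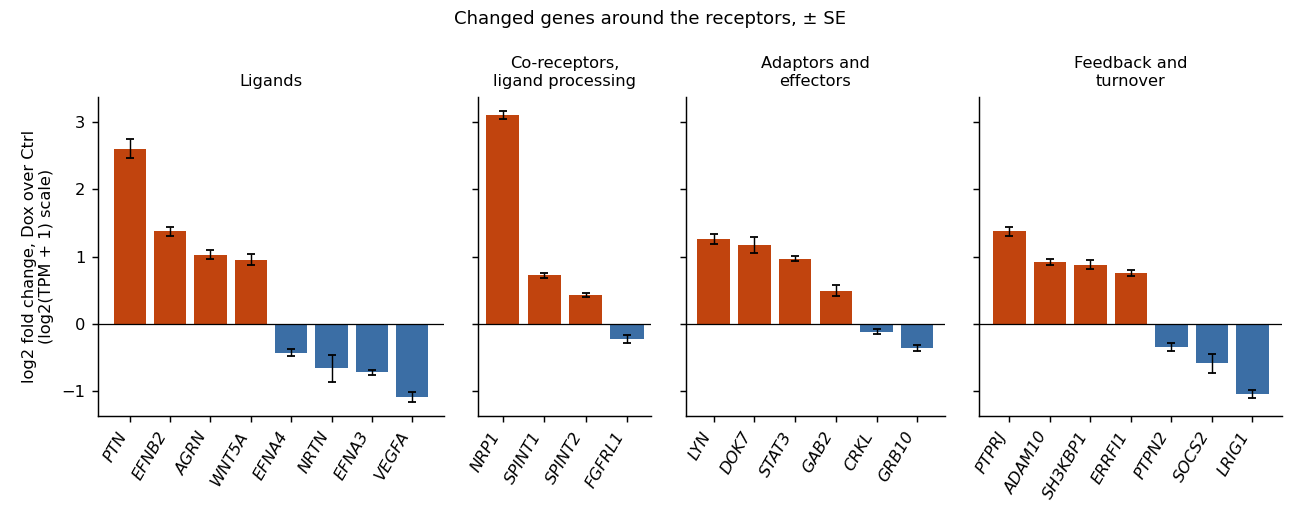
Log2 fold change, Dox over Ctrl on the log2(TPM + 1) scale (bars, SE as whiskers), of up to 4 called genes in each direction from the lists of ligands, co-receptors and ligand processing, adaptors and effectors, and feedback and turnover. NRP1 (3.10) and PTN (2.60) are the tallest bars, and VEGFA (-1.09) and LRIG1 (-1.05) the lowest.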

How the data were processed

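Stranded mRNA libraries were prepared per the labels' protocols. Per the submitters' processing notes, FastQC 0.11.2, STAR 2.5.3a, featureCounts and edgeR were used with hg19, without stated roles. The authors deposited 1 TPM value per gene and library, and the annotation release and strand setting are not given there. The deposited TPM values sum to the same total in each library.

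Genes with at least 1 TPM in 3 libraries were fitted with limma 3.58.1 (R 4.3.3, variance trend, log2(TPM + 1), Benjamini-Hochberg over all 14833 tested genes). On simulated data of this comparison (14833 genes, 50 changed per size), 22%, 56%, 90% and 94% of genes changed 1.2-fold, 1.5-fold, 2-fold and 4-fold were recovered, with 4 false calls. Far fewer genes were changed there than the 53.7% called in the data, and folds were added on the log2(TPM + 1) scale. The recovery shares may therefore not hold for the data, above all for genes near 1 TPM. Whole reads (within 0.01) were recovered from TPM, a gene length and a constant of each library. The GENCODE 29 length served for 9115 tested genes and, for the other 5718, the smallest length that gave whole reads, so counts sharing a divisor come out too low by it. On simulated reads 99.6% of genes came out right. Floors and exact (Clopper-Pearson) intervals cover counting error only. Of 222 rows repeating an earlier symbol none was used. No library pair of a group was a duplicate (chi-square per gene of 2.55 to 4.99).

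The members and lists were chosen with earlier results of these data known. Named are all tested members, those under the filter by range, and up to 4 called genes per list and direction. Alternatives were another pseudocount, 2 filters, 2 rescalings, no trend, leaving out each library and a replicate block, with voom on recovered reads added after seeing the data. Values of some marker genes are not reported here.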

Additional observations from a re-analysis of the deposited data

How the results depend on the processing

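Of the 13 called receptors 10 kept their call and direction in every setting that could be run on them, and RET, RYK and LMTK2 did not. Of 337 recomputed receptor values 302 stayed on the same side, 15 lost the call, 11 gained it and 9 changed sign. The sign changes, all of receptors that were not called, were those of FGFR1 (-0.00097) and FGFR3 (-0.024) after median-ratio rescaling, of FGFR1 (-0.076), FGFR3 (-0.094), EPHA10 (-0.079), EPHB2 (-0.035), PTK7 (-0.056) and STYK1 (-0.026) after quantile normalization, and of FGFR3 without Ctrl replicate 1 (range when 1 library was left out -0.00073 to 0.13). The cause was not tested. Receptors called lower numbered 7 after either rescaling. With a mean of at least 5 TPM, where fewer genes are tested, 5 of 12 receptors rose and 2 fell, and 5 of 14 ligands rose. In that fit 41.1% of all genes rose and 21.6% fell. With no filter, which tests more genes, 13 of 45 receptors rose and 2 co-receptors fell, where 18.9% of all genes rose and 9.05% fell. Feedback genes numbered 7 higher and 5 lower after quantile normalization. Adaptors called lower numbered 1 with no variance trend, where 16.9% of all genes fell, and 1 to 2 when 1 library was left out. Leaving out 1 library gave 8 to 10 receptors higher and 3 to 4 lower, where 30% to 35.6% of all genes rose and 14.9% to 16.3% fell. Same-numbered libraries did not deviate together (r of -0.0085, 0.063 and 0.0035), and not every library correlated best with its own number. The replicate block gave 9 receptors higher and 3 lower, losing RET (limma adjusted p = 0.084), where 35.2% of all genes rose and 17.6% fell. Voom on recovered reads gave 9 higher and 5 lower, adding EPHA3 (adjusted p = 0.0056), where 35.1% of all genes rose and 22.3% fell. Of 25 named list genes 23 kept their call in every setting, and NRTN and CRKL did not. Log2 fold changes of called genes that moved by over 1.5 times were larger with a pseudocount of 0.1 and with voom for EPHA7 (1.81 and 1.91), RET (-0.56 and -0.64), PTN (4.58 and 4.96) and DOK7 (1.77 and 1.84), and with voom for FGFR2 (1.58). Quantile normalization gave EPHA6 -0.50, RYK 0.18, LMTK2 0.072, GAB2 0.33, CRKL -0.21 and PTPN2 -0.52, and median-ratio rescaling gave LMTK2 0.14 and CRKL -0.22. Depth limits the receptors under the filter, where 3 reads on 1 kb are 0.335 to 0.401 TPM.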
